A study of Mus musculus with 384 samples.

Results

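Foxp3 and 4 members of the Ikaros family, Ikzf1, Ikzf2, Ikzf3 and Ikzf4, were followed in single regulatory T (Treg) cells sorted from mouse ear skin. These 5 genes were taken by symbol from the 50556 gene rows of the count matrix; 30597 rows held a count somewhere. All 5 had counts, and all 5 passed the filter on low values used for the tests. Treg cells are CD4 T cells that restrain immune responses, and the sources used here do not say which markers the sort used. Mice received 5% imiquimod, a Toll-like receptor agonist that inflames skin, or vehicle on both sides of the ears from day 0, and cells were sorted on day 3. The design names 2 mice per treatment but ties no plate to a mouse, and the sources used here name neither strain nor age. Library numbers in the sample titles placed the wells on 4 plates, 2 per treatment. Each plate had 87 single-cell wells, 4 wells of 10 cells and 5 empty wells. The latter 2 kinds of well carry no treatment label and are described by plate, each plate being named after the treatment of its single cells. Single-cell wells with at least 500 detected genes and at least 10000 counts were kept. They numbered 62 and 58 on vehicle plates 1 and 2, and 38 and 44 on imiquimod plates 1 and 2, which is 58.0% of all single-cell wells.

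FOXP3 is the forkhead transcription factor that defines the Treg lineage. Ikaros proteins are zinc finger transcription factors of lymphocytes that bind DNA with an amino-terminal group of fingers, pair with each other through carboxy-terminal fingers, and recruit repressor complexes such as NuRD. Ikzf1 encodes Ikaros, Ikzf2 Helios, Ikzf3 Aiolos and Ikzf4 Eos. Helios is common in Treg cells and helps keep their state stable, Eos is a corepressor partner of FOXP3, and Aiolos and Ikaros are the substrates that thalidomide analogues send to the cereblon ubiquitin ligase in human cells.

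Since paralogues can share reads, the stretch of coding sequence that the family members share most closely at the protein level is shown here. It encodes the second DNA-binding zinc finger, in which all 21 residues are identical between the 4 proteins. The sequences run 5′ to 3′, come from the GENCODE M21 transcripts, and have capitals where a base differs from Ikzf1.
Ikzf1: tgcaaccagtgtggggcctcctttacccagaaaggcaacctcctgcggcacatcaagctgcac
Ikzf2: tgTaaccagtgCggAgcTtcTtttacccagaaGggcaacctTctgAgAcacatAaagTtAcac
Ikzf3: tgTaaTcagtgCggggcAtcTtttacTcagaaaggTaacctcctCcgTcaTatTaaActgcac
Ikzf4: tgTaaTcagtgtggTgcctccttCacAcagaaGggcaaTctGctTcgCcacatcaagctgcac
Of these 63 bases, 12 differed from Ikzf1 in Ikzf2, 12 in Ikzf3 and 10 in Ikzf4. Over all protein-coding transcripts of each gene, the longest exact stretch shared by any pair of family members was 32 bases, for Ikzf2 and Ikzf4, followed by 26 bases for Ikzf1 and Ikzf3. No stretch over 14 bases was shared between Foxp3 and a family member.

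The kept cells held between 47481 and 5946386 counts and a median of 1101 detected genes. T cell markers were present in 93.1% of them, and 180 cells had a count of a T cell receptor or CD3 gene. Markers of macrophages and dendritic cells were present in 57.9% of kept cells, mostly Zbtb46 in 68 cells and Adgre1 in 60, while Csf1r, Itgam, Cd68, Cd14, Lyz2 and Flt3 were in 2 to 10 cells each. Haemoglobin genes were present in 27.7% of kept cells, melanocyte markers in 21.8% and mast cell markers in 18.3%, where Mcpt4, Fcer1a and Tpsb2 were at 0. CD8 genes were present in 4 cells and NK cell markers in 1. No 2 kept cells had the same counts.

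Ikzf2 was the family member seen most often. A count of Ikzf2 was present in 120 kept cells (59.4%, 95% exact binomial interval 52.3 to 66.2), which placed it 36th of the 28163 genes with a count in these cells. Ikzf3 was present in 76 cells (37.6%, 30.9 to 44.7) and Foxp3 in 75 (37.1%, 30.5 to 44.2), at nearly the same share. Ikzf1 was present in 39 cells (19.3%, 14.1 to 25.4) and Ikzf4 in 37 (18.3%, 13.2 to 24.4), again close to each other. The intervals of Ikzf3 and Foxp3 overlapped, as did those of Ikzf1 and Ikzf4, while Ikzf2 stood above and Ikzf1 and Ikzf4 below the middle pair. This order did not hold on imiquimod plate 1. There Ikzf2 and Foxp3 were both at 36.8%, and Ikzf1 (18.4%) was above Ikzf3 (13.2%). Ikzf5, a family member outside the 5 genes (Pegasus), was present in 14 cells (6.93%). All intervals treat cells as independent draws, so they cover counting error only. Those over all kept cells leave out the spread between plates, such as 36.8% to 70.5% for Ikzf2 and 2.27% to 29.0% for Ikzf1. Without molecular identifiers, reads from 1 molecule can be counted several times.

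Over all plates, few of these detections rested on a handful of reads. A count of 3 or fewer made up 8 of the 75 Foxp3 detections, 4 of 39 for Ikzf1, 7 of 120 for Ikzf2, 11 of 76 for Ikzf3 and 4 of 37 for Ikzf4. Of these, 7 of 23 Ikzf3 detections lay on vehicle plate 2 and 2 of 4 Ikzf4 detections on imiquimod plate 1, where the Ikzf4 share was 10.5% at any count and 2.63% at 10 CPM or more. At an equal depth of 40000 counts per cell, the expected shares were 32.1% for Foxp3, 16.1% for Ikzf1, 55.0% for Ikzf2, 29.8% for Ikzf3 and 14.1% for Ikzf4. At 400000 counts, leaving out 20 shallower cells, they were 37.3%, 18.8%, 59.4%, 34.9% and 16.6% in the same order of genes. Detection differed with the number of genes seen in a cell. Foxp3 was present in 54.5% of the cells above their plate's median number of detected genes and in 19.8% of the cells at or under it. The corresponding shares were 30.7% and 7.92% for Ikzf1, 67.3% and 51.5% for Ikzf2, 51.5% and 23.8% for Ikzf3, and 24.8% and 11.9% for Ikzf4. Cells above the median also had more counts, at a median of 2522290 against 840364.

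Shares differed between the 2 imiquimod plates as well as between treatments. Foxp3 was seen in 38.7% and 39.7% of the kept cells of vehicle plates 1 and 2 and in 36.8% and 31.8% of those of imiquimod plates 1 and 2. Among kept cells the 4 plates were close, with both imiquimod plates just under both vehicle plates. Over all single-cell wells, kept or not, the Foxp3 shares were 31.0% and 32.2% on vehicle plates and 17.2% and 18.4% on imiquimod plates. Ikzf1 was seen in 29.0% and 22.4% of vehicle cells, 18.4% of cells on imiquimod plate 1 and 2.27% on imiquimod plate 2, where it was found in 1 of 44 cells. Ikzf2 was seen in 62.9% and 62.1% of vehicle cells, 36.8% of cells on imiquimod plate 1 and 70.5% on imiquimod plate 2, so that imiquimod plates held both the lowest and the highest share of Ikzf2. Ikzf3 had the same low plate, with 46.8% and 39.7% in vehicle, 13.2% on imiquimod plate 1 and 43.2% on the other imiquimod plate. Ikzf4 was seen in 21.0% and 24.1% of vehicle cells and in 10.5% and 13.6% of imiquimod cells.

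**Figure D1:**
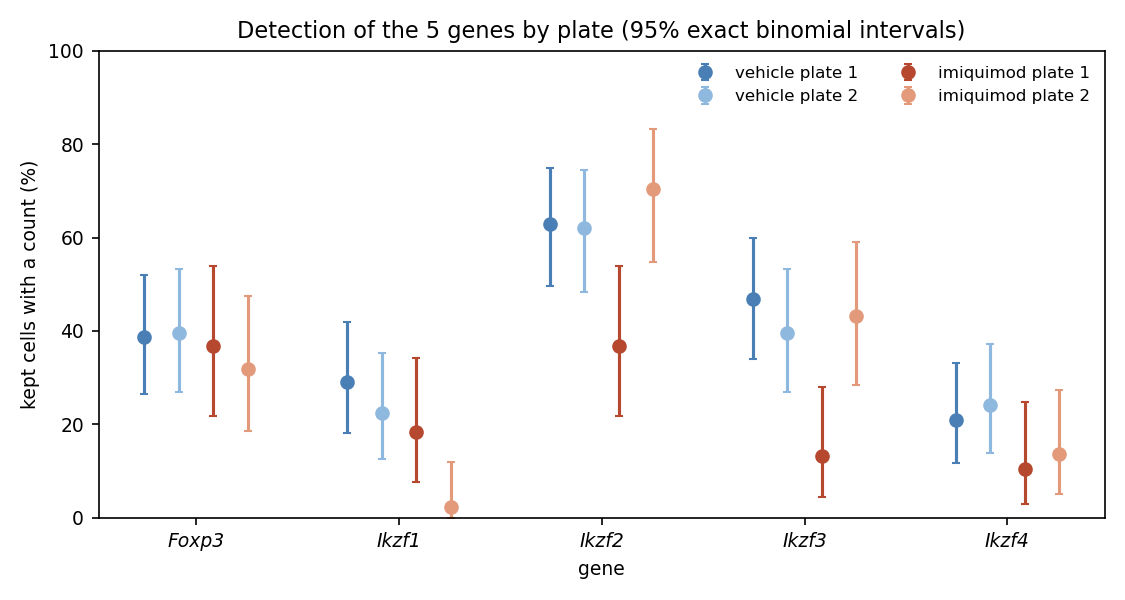
Share of kept cells with at least 1 count of each gene (vertical axis, percent) on each of the 4 plates, with 95% exact binomial intervals. Ikzf1 on imiquimod plate 2 (1 of 44 cells) and Ikzf2 and Ikzf3 on imiquimod plate 1 lie under the other plates of the same gene.

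The mean share was lower in imiquimod than in vehicle for all 5 genes, but no difference passed a test. Foxp3 was detected in 39.2% ± 0.67 of vehicle cells and 34.3% ± 3.55 of imiquimod cells (SD, n = 2 plates each), a difference of -4.85 percentage points. That difference was -13.8 points over all single-cell wells, -12.96 points in cells with at least 1000 genes and -9.49 points at 400000 counts. The differences were -15.4 points for Ikzf1, -8.84 for Ikzf2, -15.04 for Ikzf3 and -10.5 for Ikzf4. An exact two-sided permutation test over plates gave p = 0.333 for Foxp3, Ikzf1 and Ikzf4, the smallest value that 2 plates against 2 allow, 0.667 for Ikzf3 and 1 for Ikzf2. With Benjamini-Hochberg adjustment over the 5 genes the permutation values were 0.556 for those 3 genes, 0.833 and 1. Shares on both imiquimod plates lay under both vehicle plates for Foxp3, Ikzf1 and Ikzf4, or 3 of 5 genes, which is a common pattern here since 42.5% of the 14462 genes tested showed it. Fewer cells had passed the filter on imiquimod plates, 43.7% and 50.6% of single-cell wells against 71.3% and 66.7% on vehicle plates. Median detected genes in kept cells were 975 and 1093 on imiquimod plates and 1040 and 1503 on vehicle plates. The part of these values in the lower shares was not tested. Without imiquimod plate 1, the Ikzf2 difference turned to 7.97 points higher in imiquimod and the Ikzf3 difference shrank to -0.03 points.

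Where a gene was seen, its level spread over several orders of magnitude from cell to cell. Levels are given as counts per 1000000 counts of the cell (CPM). Foxp3 ran from 0.265 to 40159 CPM over its 75 cells, with medians of 795 and 455 CPM on vehicle plates and 729 and 1403 CPM on imiquimod plates. Ikzf2 reached the highest level, 88120 CPM in a cell of vehicle plate 2, with medians of 2553 and 2490 CPM on vehicle and 1064 and 3358 CPM on imiquimod plates. The medians of Ikzf3 were 552 and 390 CPM on vehicle and 151.4 and 256.1 CPM on imiquimod plates. Ikzf1 had medians of 705 and 166.6 CPM on vehicle plates and 335.6 CPM on imiquimod plate 1, and stood at 1167 CPM in its only cell on imiquimod plate 2. Ikzf4 had medians of 885 and 267.9 CPM on vehicle plates, 5.05 CPM in 4 cells of imiquimod plate 1 and 1765 CPM in 6 cells of imiquimod plate 2. For every gene the ranges of the 4 plates overlapped among cells with a count.

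**Figure D2:**
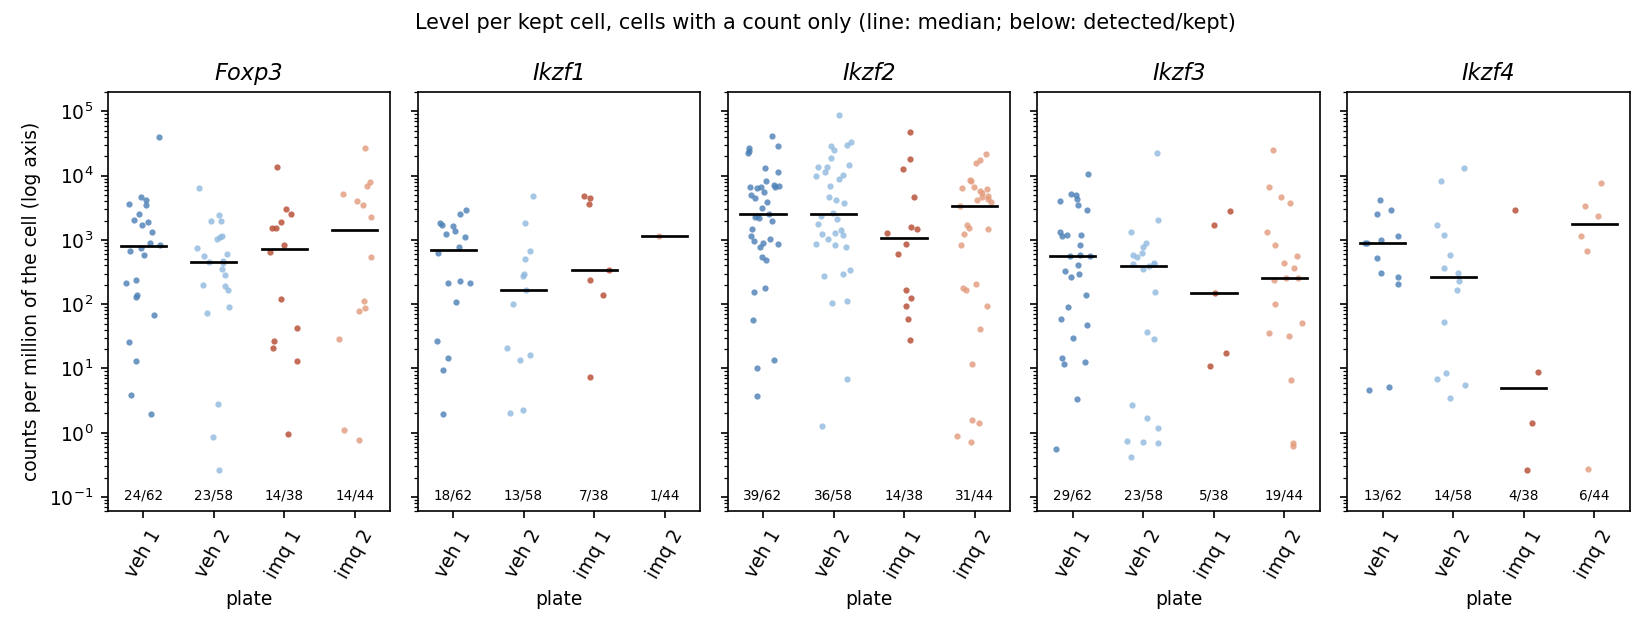
Level of each gene in every kept cell with a count (vertical axis, CPM, log scale) by plate (veh, vehicle; imq, imiquimod); lines mark medians of cells with a count and the numbers beneath give cells with a count of kept cells. Levels span more than 4 orders of magnitude within Foxp3, Ikzf2, Ikzf3 and Ikzf4.

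Sums over a plate therefore leaned on few cells for the rarer genes. The highest cell held 28.6%, 29.7%, 52.2% and 24.4% of a plate's Foxp3 counts on vehicle plates 1 and 2 and imiquimod plates 1 and 2. For Ikzf2 the highest cell held 13.8% and 11.1% on vehicle plates, 62.8% on imiquimod plate 1 and 14.0% on imiquimod plate 2. A single cell held 99.9% of the Ikzf4 counts of imiquimod plate 1, and the only detecting cell held 100% of the Ikzf1 counts of imiquimod plate 2.

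Per kilobase of exonic length (all annotated exons, GENCODE M21), Ikzf2 led the family. This scale is rough, since the transcripts present and the read coverage along them were not measured. Ikzf2 has 11.61 kb of exons, and its transcript with the longest reading frame has 2483 bases. Foxp3 has 4.577 kb and 2226 bases, so distances between genes depend on the length chosen. Over all kept cells Ikzf2 stood at 280.5 CPM per kilobase, Ikzf3 at 72.9, Ikzf4 at 49.0, Ikzf1 at 43.6 and Ikzf5 at 1.72, beside 207.1 for Foxp3. Ikzf2 made up 64.4% and 69.7% of the summed family level per kilobase on vehicle plates, 46.2% on imiquimod plate 1 and 57.9% on imiquimod plate 2. Ikzf1 ranged most, from 33.8% of the family on imiquimod plate 1 to 1.95% on imiquimod plate 2. Cell by cell, Ikzf2 was the highest family member per kilobase in 98 cells (64.1% of those with any family count), Ikzf3 in 28, Ikzf1 in 15, Ikzf4 in 9 and Ikzf5 in 3. This share of cells led by Ikzf2 was close on all plates, at 64.6%, 66.7%, 61.9% and 61.1%. The order of Ikzf2 above the other members held on each plate, whereas Ikzf3 and Ikzf4 were level on vehicle plate 2, at 57.8 and 58.0 CPM per kilobase.

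Most kept cells had none, 1 or 2 of the 5 genes, and few had all 5. Of the kept cells, 39 had none of the 5, 61 had 1, 47 had 2, 30 had 3, 23 had 4 and 2 had all 5. The median number of detected genes was 809 in cells with none, 870 with 1, 1073 with 2, 2143 with 3, 3018 with 4 and 3414 with 5. Cells with Ikzf2 alone were the most common class with a count, at 34 cells, followed by Ikzf2 with Ikzf3 in 16, Foxp3 with Ikzf2 in 14 and Foxp3 alone in 10. Of 75 cells with Foxp3, 65 also had at least 1 of the 4 Ikaros family genes (86.7%), as did 69.3% of the cells without a Foxp3 count. Imiquimod plate 1 had the lowest share of Foxp3 cells with a family gene, 9 of 14, against 23 of 24, 20 of 23 and 13 of 14 on vehicle plate 1, vehicle plate 2 and imiquimod plate 2.

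Summed over plates, every pair was found together more often than unrelated detection within each plate would give. Foxp3 with Ikzf2, Foxp3 with Ikzf4, Ikzf1 with Ikzf3 and Ikzf3 with Ikzf4 exceeded that number on all 4 plates, Ikzf1 with Ikzf4 on 2 plates and the other pairs on 3. Foxp3 and Ikzf2 shared 53 cells where 44.4 would be found if unrelated, with an odds ratio over plates of 2.31. Odds ratios compare a gene's detection in cells with and without the other gene. Foxp3 and Ikzf3 shared 39 cells (28.2 if unrelated, odds ratio 2.78; on imiquimod plate 1, 1 cell where 1.84 would be found), Foxp3 and Ikzf1 shared 23 (15.0, 3.03) and Foxp3 and Ikzf4 shared 20 (14.0, 2.32). Ikzf3 and Ikzf4, the genes of Aiolos and Eos, had the largest ratio, with 23 shared cells where 14.7 would be found, and an odds ratio of 3.22.

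Since cells with more detected genes show more of everything, the odds ratios were also taken within plates divided at their median number of detected genes. That of Ikzf3 and Ikzf4 stayed at 3.07. The odds ratio of Foxp3 fell to 1.79 with Ikzf2, 1.82 with Ikzf3, 1.91 with Ikzf1 and 2.04 with Ikzf4. Ikzf1 and Ikzf3 fell from 2.91 to 2.02, Ikzf2 and Ikzf3 from 2.08 to 1.63, and Ikzf1 and Ikzf2 from 1.64 to 1.17. Ikzf1 and Ikzf4 went from 1.28 to 0.897, on 9 shared cells. The pairs were not tested, because cells of 1 plate share handling and depth. Pairs of other genes were not counted, so how common such an excess is among all genes was not measured. Divided in the same way, the odds ratio of Foxp3 was 11.3 with haemoglobin genes, 2.99 with melanocyte markers and 1.44 with endothelial markers. It was 1.14 with macrophage and dendritic cell markers, 0.97 with fibroblast markers and 0.81 with mast cell markers. The within-plate correlation of log2(CPM + 1), averaged over plates, was highest for Ikzf1 with Ikzf3 (0.29) and Ikzf3 with Ikzf4 (0.28), then Foxp3 with Ikzf2 (0.24). For Foxp3 with Ikzf3, 1 of 10 pairs, the correlation was 0.36 and 0.51 on vehicle plates and -0.01 and -0.06 on imiquimod plates. Imiquimod plate 1 had 5 cells with Ikzf3, of which 1 had Foxp3. Treatments were also apart for Ikzf2 with Ikzf4 (0.13 and -0.02 against -0.13 and -0.06). They were apart the other way for Ikzf1 with Ikzf3 (0.24 and 0.19 against 0.43 and 0.29), and the remaining pairs overlapped. These differences were not tested.

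**Figure D3:**
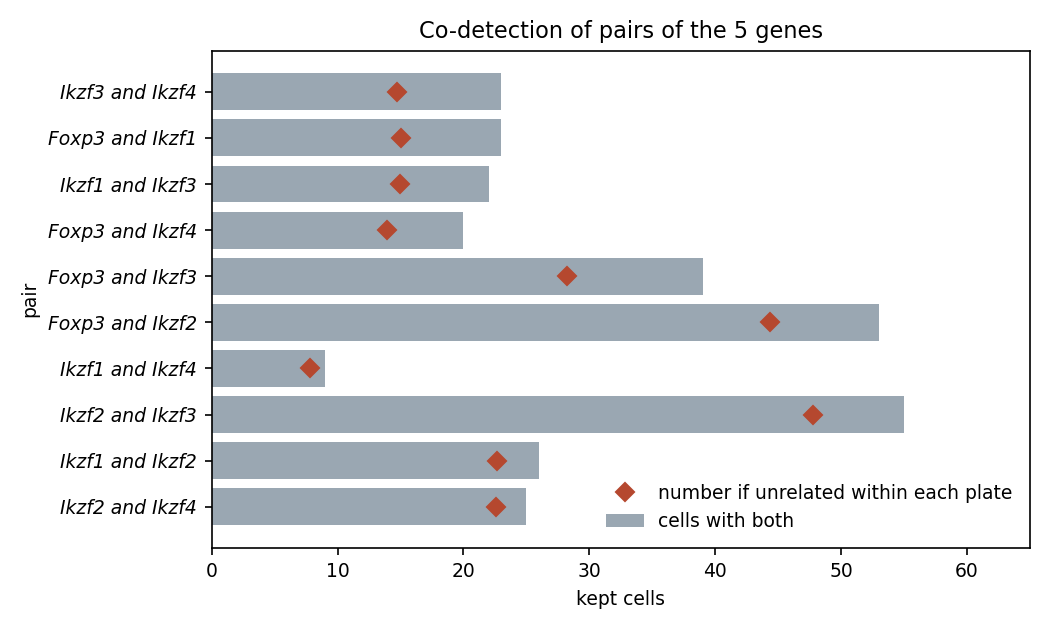
Number of kept cells with both genes of each pair (bars, horizontal axis) and the number expected if the genes were unrelated within each plate (diamonds). All 10 bars reach past their diamonds, furthest in proportion for Ikzf3 and Ikzf4 (23 against 14.7).

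Wells of 10 cells gave a separate reading of the same plates. All 16 wells had Foxp3 and Ikzf2, 15 had Ikzf3, 14 had Ikzf1 and 12 had Ikzf4, and 11 wells had all 5 genes. If each well pooled 10 cells of the kept kind from its plate, 15.8 wells with Foxp3, 16.0 with Ikzf2, 15.0 with Ikzf3, 11.9 with Ikzf1 and 13.1 with Ikzf4 would be found. The largest departure was Ikzf1 on imiquimod plate 2, where 0.822 of 4 wells would be found from its single cells and all 4 had it, at 60.6 to 338.9 CPM.

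Foxp3 stood at 226.5 to 1095 CPM in the 4 wells of vehicle plate 1, 259.7 to 1211 CPM on vehicle plate 2, 74.6 to 1237 CPM on imiquimod plate 1 and 43.3 to 1072 CPM on imiquimod plate 2. Ikzf2 stood at 536 to 4034 CPM and 2394 to 6138 CPM on vehicle plates, 61.2 to 1309 CPM on imiquimod plate 1 and 5.63 to 1711 CPM on imiquimod plate 2. Every Ikzf2 value of vehicle plate 2 lay above every value of both imiquimod plates, while vehicle plate 1 overlapped with them. Ikzf3 was steady on the vehicle plates, at 417 to 958 CPM and 290.97 to 518 CPM, and ran from 0 to 259.3 CPM on imiquimod plate 1 and from 8.45 to 606 CPM on imiquimod plate 2. Ikzf1 ran from 0 to 441 CPM and Ikzf4 from 0 to 449 CPM over the 16 wells. The well with the least Ikzf2 held 710021 counts, the lowest total of the 16.

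Levels in the wells of 10 cells were lower than in the summed single cells for all 5 genes, although no gene passed the test. With edgeR's quasi-likelihood test and plate as a term, 0 of 11452 genes had a Benjamini-Hochberg adjusted p under 0.05 (0% called), and 1.98% had an unadjusted p under 0.05. The log2 fold change, wells of 10 cells over single cells, was -1.18 ± 0.29 (SE) for Ikzf2, -0.85 ± 0.48 for Foxp3, -0.79 ± 1.05 for Ikzf1, -1.03 ± 0.57 for Ikzf3 and -1.84 ± 1.04 for Ikzf4, with an adjusted p of 1 in each by edgeR. The median over all genes tested was -0.28. Fibroblast markers summed to 1604 CPM in wells of 10 cells and to 85.9, 350.7, 119.5 and 202.5 CPM in the single cells of vehicle plates 1 and 2 and imiquimod plates 1 and 2. T cell markers summed to 4821 CPM and to 4977, 4035, 5643 and 2649 CPM in the same order, and the part of either in these values was not tested. Ikzf2, Ikzf3 and Ikzf4 were lower on all 4 plates, 3 of 5 genes where 7.69% of all genes were, and Foxp3 and Ikzf1 on 3 plates. In TMM-scaled CPM, Ikzf2 stood at 4531, 3866, 1930 and 2953 in single cells and at 2097, 3308, 633 and 881 in wells of 10 cells of vehicle plates 1 and 2 and imiquimod plates 1 and 2. DESeq2 on the same sums called 973 genes, 8.5% of those tested, and Ikzf2 was among them (-0.98, adjusted p = 0.0148).

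**Figure D4:**
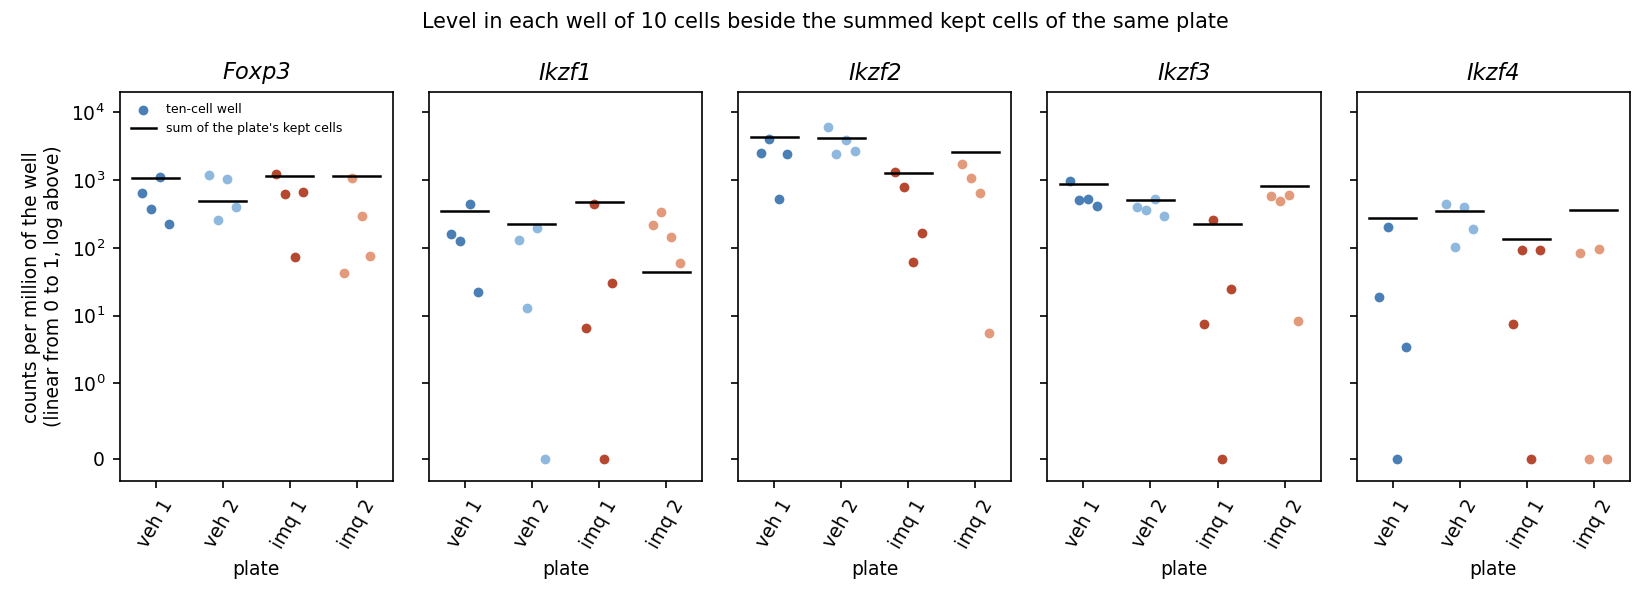
Level of each gene in every well of 10 cells (points) and in the summed kept cells of the same plate (lines), in CPM on an axis that is linear from 0 to 1 and logarithmic above. On imiquimod plate 2 all 4 wells show Ikzf1 above the line of the single cells, which came from 1 cell.

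Wells without a cell were nearly free of these genes. Ikzf2 had 2 counts in 1 of the 20 wells, a well of imiquimod plate 1 with 2824 counts in all. Foxp3, Ikzf1, Ikzf3 and Ikzf4 had no count in any, which allows a share of up to 15% of wells by a limit of 3 counts. Most of these wells could show little, since 4 had no count at all, 11 of the 20 had fewer than 1000 counts and 8 had more than 100000. They held up to 1527760 counts, and 1 of them, with 885 genes, would have passed the filter on cells and had none of the 5 genes.

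Across treatments, no difference in the summed level of the 5 genes passed the test. With edgeR's quasi-likelihood test on the plate sums, 0 of 14462 genes had an adjusted p under 0.05 (0% called), and 1669 had an unadjusted p under 0.05, none of the 5 genes among them. Fewer cells with a transcript and less transcript per cell cannot be told apart in such sums. Foxp3 stood at 992 and 387 TMM-scaled CPM on vehicle plates and at 1636 and 1224 on imiquimod plates, where the treatments do not overlap. Its log2 fold change, imiquimod over vehicle, was 1.05 ± 0.72 (SE, edgeR adjusted p = 0.610). Levels apart and higher in imiquimod were seen in 13.7% of the genes tested. Ikzf2 stood at 4036 and 3259 TMM-scaled CPM in vehicle and 1856 and 2797 in imiquimod, again without overlap, and its log2 fold change was -0.65 ± 0.43 (edgeR adjusted p = 0.589). Levels apart and lower in imiquimod were seen in 31.1% of the genes tested.

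The other members overlapped between treatments. Ikzf1 stood at 320.5 and 174.6 TMM-scaled CPM in vehicle and 675 and 47.0 in imiquimod, with a log2 fold change of 0.54 ± 1.37 (edgeR adjusted p = 0.936). Ikzf3 stood at 815 and 396 in vehicle and 322.2 and 873 in imiquimod (-0.02 ± 0.92, edgeR adjusted p = 0.997). Ikzf4 stood at 255.6 and 271.9 in vehicle and 194.6 and 383.3 in imiquimod (0.13 ± 1.24, edgeR adjusted p = 0.987). DESeq2 called 25.9% of the genes tested and none of the 5.

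The direction for Foxp3, Ikzf1 and Ikzf4 differed between measures. The summed level of Foxp3 was higher in imiquimod while its detection share was lower. Its mean CPM over cells, each cell counted equally on the linear scale, was 1132 and 357.04 on vehicle plates and 677 and 1320 on imiquimod plates, which overlap. On the plate mean of log2(CPM + 1) per cell, tested with limma, Foxp3 was at -0.42 (limma adjusted p = 0.783), Ikzf1 at -1.01, Ikzf2 at -1.68, Ikzf3 at -1.06 and Ikzf4 at -0.97, all lower in imiquimod and none past the threshold, where the median over all genes was -0.12. Ikzf2 kept its negative sign in all 12 alternatives, from -1.68 to -0.25. Ikzf3, near 0, changed sign in 8 of the 12. Ikzf1 went to -2.30 without imiquimod plate 1, a fit in which the median over all genes was -2.70. Cells with a haemoglobin count made up 3.23% and 22.4% of kept cells on vehicle plates and 55.3% and 45.5% on imiquimod plates, and neutrophil markers 0%, 5.17%, 7.89% and 20.5%. Mast cell markers, nearly all of them Kit, went the other way, with 29.0% and 25.9% of cells on vehicle plates and 5.26% and 4.55% on imiquimod plates (272.6 and 115.6 against 4.50 and 6.42 CPM). The share of cells with the endothelial marker Pecam1 also did, with 16.1% and 22.4% against 2.63% and 11.4%. The other endothelial marker, Cdh5, was in 1 cell, on imiquimod plate 2 (8.86 CPM). Summed endothelial levels overlapped, at 162.7 and 433.2 CPM on vehicle and 0.88 and 285.4 CPM on imiquimod plates. The summed haemoglobin level was 655 and 24.4 CPM on vehicle and 654 and 334.4 CPM on imiquimod plates. The part of these markers in the results was not tested.

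**Figure D5:**
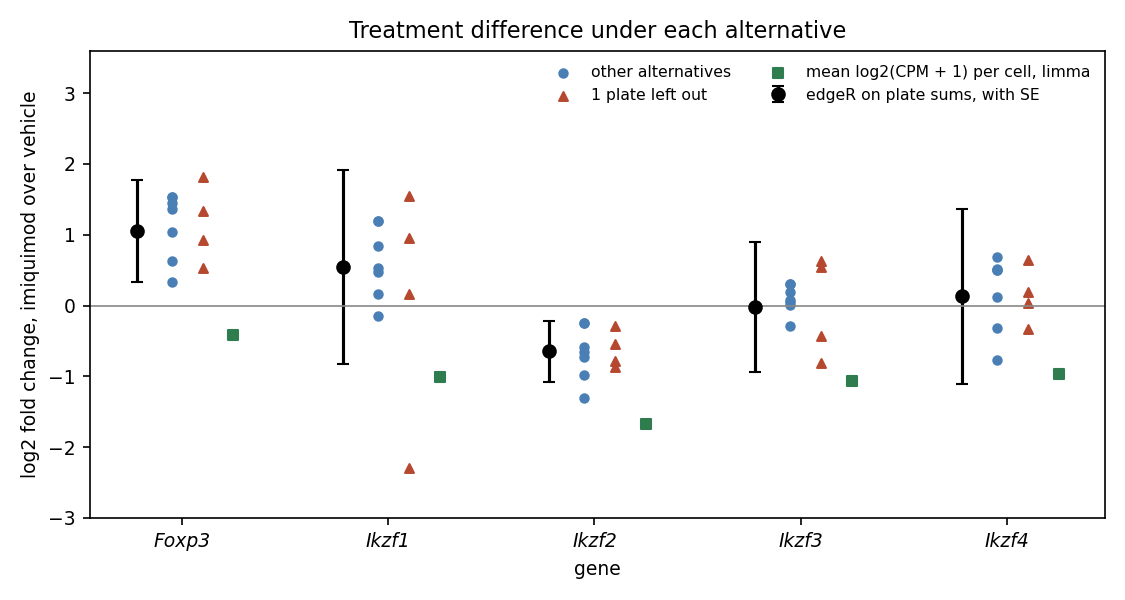
Log2 fold change, imiquimod over vehicle, of each gene from edgeR on plate sums (black, with SE), with 1 plate left out (triangles), under other alternatives (circles) and for the mean of log2(CPM + 1) per cell (squares). Ikzf2 is the only gene whose points all lie on 1 side of 0.

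Partners and targets of the 5 genes gave 67 tested genes in 7 lists, and none passed the edgeR threshold between treatments. Of 25 transcription factors and cofactors that bind FOXP3 or act on its gene, 14 had a positive and 11 a negative log2 fold change. Over all genes tested, 46.6% were positive. The list's median was 0.19 against -0.26 over all genes tested. Without vehicle plate 2, imiquimod plate 1 or imiquimod plate 2, the median over all genes was -0.12, -2.70 or -6.56. The median of these 25 was -0.05, -0.06 or -0.10. The 2 of highest level were Rora, which encodes a nuclear receptor of tissue T cells (-0.32 ± 0.56), and Nr4a1, an immediate-early gene of T cell receptor signalling (0.38 ± 0.62). Among genes that FOXP3 raises, 11 of 16 tested were positive, with a median of 0.86. This median fell to 0.13 without imiquimod plate 1 and was -0.0027 after thinning, where all genes had medians of -2.70 and -0.38. Il2ra, the interleukin 2 receptor alpha chain, stood at 2621 and 1887 TMM-scaled CPM in vehicle and 657 and 978 in imiquimod (-1.46 ± 0.58, edgeR adjusted p = 0.420). Tnfrsf4, which encodes the costimulatory receptor OX40, stood at 797 and 669 in vehicle and 3684 and 944 in imiquimod (1.66 ± 0.69, edgeR adjusted p = 0.420). Neither gene's treatments overlapped, and they went opposite ways. Of the 16 list genes tested, 2 were apart and lower in imiquimod and 4 apart and higher. Over all genes tested these shares were 31.1% and 13.7%.

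Of 9 genes that FOXP3 holds down, 4 could be tested and all 4 were negative, with a median of -3.47. Most of the 9 were near the floor. The share of kept cells with a count ran from 0% to 29.2%, with a median of 1.49%. Without vehicle plate 1 this median was -1.29 over 5 genes, and without vehicle plate 2 -1.86 over 6 genes. With cells thinned to 40000 counts it was -1.65 over 3 genes, and on the mean of log2(CPM + 1) per cell -0.58. Medians over all genes were -0.59, -0.12, -0.38 and -0.12 in the same order. The 2 list genes of highest level were the chromatin organiser Satb1 (-0.73 ± 1.01) and the transcription factor Lef1 (-1.95 ± 2.61). Of the 13 genes of NuRD, the remodelling and deacetylase complex that Ikaros proteins recruit, 9 were positive, with a median of 0.45. This median turned to -0.36 without imiquimod plate 1, -0.41 without imiquimod plate 2 and -0.23, over 12 genes, after thinning. Medians over all genes were lower in these settings, at -2.70, -6.56 and -0.38. The subunit genes Mta2 and Hdac1 had values of 2.18 ± 1.35 and 0.11 ± 1.63. In the Sin3 and CtBP corepressors 2 of 4 were positive, with Sin3b at 1.75 ± 1.55 and Ctbp1 at 3.08 ± 1.67. In the cereblon ligase 2 of the 4 tested were positive, with the adaptor Ddb1 at -0.01 ± 2.25 and the substrate receptor Crbn at 0.80 ± 2.01. Ikzf5 stood at 0.73 ± 3.30. The Sin3 and CtBP median of 0.54 turned to -0.39 without imiquimod plate 1, and the cereblon ligase median of 0.40 to -0.32 without vehicle plate 2. Ikzf5 turned negative without imiquimod plate 2. On the mean of log2(CPM + 1) per cell the medians of the FOXP3 partners, the genes FOXP3 raises, NuRD, the Sin3 and CtBP corepressors and Ikzf5 were negative, at -0.64, -0.30, -0.14, -0.099 and -0.10, and that of the cereblon ligase was 0.0048.

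Over cells, the gene most like Foxp3 among 1559 genes present in at least 20% of kept cells was Thy1, a surface glycoprotein of T cells. The mean within-plate correlation of log2(CPM + 1) was 0.55, and 0.38, 0.58, 0.84 and 0.40 on vehicle plates 1 and 2 and imiquimod plates 1 and 2. Of 53 cells with Thy1, 42 had Foxp3 (79.2%), against 22.1% of cells without it. Apobec3, a cytidine deaminase (0.42), and Eif4a1, a translation initiation helicase (0.39), came next. For Ikzf2 the first was the uncharacterised locus LOC118567749 (0.61), then Traf1, a signalling adaptor of TNF receptors (0.33), and Camk4, a calcium-dependent kinase (0.32). All 66 cells with LOC118567749 also had Ikzf2, as did 39.7% of the cells without it.

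Ikzf3 was most like Tacc1 (0.39), Lck, the kinase of the T cell receptor (0.38), and Gm8355 (0.36). Ikzf1 was most like Coro2b (0.43), Itsn2 (0.42) and Asb3 (0.40), and of these Coro2b reached 0.66 on imiquimod plate 1 but 0.01 on vehicle plate 2. Ikzf4 was most like the kinase gene Cdk12 (0.35), Rap1gds1 (0.31) and Rhoa (0.29). The Ikzf1 values of imiquimod plate 2 rest on 1 cell, and the Ikzf4 values of imiquimod plate 1 on 4. These likenesses are descriptions over cells that share plates and depth.

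Of 11 genes that overlap the 5 in the annotation, 6 are rows of the matrix, and these held few counts. The other 5, Gm36995 over Foxp3, Gm12000 over Ikzf1 and Gm29114, Gm29112 and Gm28112 over Ikzf2, were not analysed here. Those of Flicr, a noncoding RNA on the same strand as Foxp3, amounted to 1.26% of the Foxp3 counts and came from 2 cells, and those of Ppp1r3f and Ccdc22 on the opposite strand to 1.70% and 0.639%. Gm11999 held 0.158% of the Ikzf1 counts and Gm26876 0.655% of the Ikzf4 counts, both on the opposite strand. The sources used here do not give the strand setting of the counting, so reads of a gene and its antisense partner cannot be told apart. LOC118567749 is not placed in the annotation used here. Its counts amounted to 12.7% of those of Ikzf2, and whether the loci shared reads was not tested.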

How the data were processed

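The authors deposited 1 matrix of read counts, with a row per gene and a column per well. Per the submitters' processing notes, the authors used Trimmomatic 0.39, STAR 2.7.3a and SAMtools 1.12 with mm39; the sources used here name neither the counting tool nor its strand setting. Per the labels' protocols, oligo dT-primed, template-switched cDNA was amplified and tagmented, with no molecular identifiers mentioned. Wells were grouped by their labels. Plates were inferred from the library numbers in the sample titles, in runs of 96 wells. The plate was the replicate, so p-values measure the spread between plates, which are nested in treatments.

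Counts of kept cells (at least 500 genes and 10000 counts) were summed per plate, giving 67319087 to 99396458 counts, and tested with edgeR 4.0.16 (quasi-likelihood, filterByExpr, TMM, Benjamini-Hochberg over all genes tested, threshold 0.05) in R 4.3.3. Fold changes are log2 with SE. Wells of 10 cells were summed likewise. No doublet caller was run. The script was tested on simulated data. Alternatives used DESeq2 1.42.0, limma 3.58.1, other filters, thinning and leaving out plates. Exonic lengths, overlaps and sequences came from GENCODE M21 (GRCm38), which is not the authors' build, so no coordinates are given. The genes and lists were chosen with earlier results of these data known. Named genes were the 5 members, per list those past the threshold or else the 2 of highest mean level, and the 3 most alike per member. Intervals are exact (Clopper-Pearson).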

Additional observations from a re-analysis of the deposited data

Results flagged for a closer look

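In the wells of 10 cells, 1 of the 4 wells of a plate stood far above the other 3 for 3 gene and plate pairs of 20, by Dixon's criterion at the 95% level, which chance meets in about 1 of 20 groups. On imiquimod plate 1, the highest well had 440 CPM of Ikzf1, where the next had 30.8 CPM and the lowest 0. The same well had the highest Ikzf3, 259.3 CPM, where the next had 24.9 CPM. On vehicle plate 1, the highest well had 204.7 CPM of Ikzf4, where the next had 18.6 CPM.

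The single-cell wells outside the filter, 42.0% of all, also held these genes. For each gene the exact interval of the share overlapped with that of the wells without a cell, of which 11 had fewer than 1000 counts. Ikzf2 was present in 20.5% of the wells outside the filter (30 wells), against 5% of the 20 wells without a cell, and the exact intervals of 14.3 to 28.0 and 0.127 to 24.9 overlap. Foxp3 was present in 7.53% (11 wells), Ikzf3 in 5.48% (8 wells), Ikzf4 in 3.42% (5 wells) and Ikzf1 in 2.05% (3 wells), where the wells without a cell had no count, which allows up to 15%. Counts in these wells reached 26808 for Ikzf2, 11863 for Ikzf1 and 7189 for Foxp3.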

How the results depend on the processing

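Plates were left out in turn, and 12 alternatives were computed for the treatment difference, 8 for wells of 10 cells and 10 for detection shares. No member passed the threshold between treatments under any of them. DESeq2 called 3740 genes, edgeR without an expression filter 9, and edgeR without 1 plate 0 to 794, the highest without imiquimod plate 2 (3.91% of genes) and the next without imiquimod plate 1 (1.02%). The log2 fold change turned negative on the mean of log2(CPM + 1) per cell for Foxp3 (-0.42), Ikzf1 (-1.01) and Ikzf4 (-0.97), and with cells thinned to 40000 counts for Ikzf1 (-0.15) and Ikzf4 (-0.77). Without each gene's highest cell per plate, an alternative chosen after seeing the data, Ikzf4 was at -0.32 and Ikzf3 at 0.074. Ikzf3 turned positive with DESeq2 (0.31) or its size factors (0.31), without a filter (0.0045), with at least 1000 genes per cell (0.046) and with a T cell receptor or CD3 count (0.19). Leaving out 1 plate gave 0.53 to 1.82 for Foxp3, -2.30 to 1.55 for Ikzf1, -0.87 to -0.28 for Ikzf2, -0.81 to 0.62 for Ikzf3 and -0.33 to 0.64 for Ikzf4. The median over all genes ran from -6.56, without imiquimod plate 2, to -0.12, without vehicle plate 2. For wells of 10 cells, DESeq2 called 973 genes and edgeR without a filter 3, and both called Ikzf2 (-0.98 and -1.42, adjusted p = 0.0148 and 0.0112, and up to 1 over its alternatives). Thinning turned Ikzf1 to 0.014. Detection differences were negative in 49 of 50 alternatives, running from -13.8 to -2.34 points for Foxp3, -23.5 to -7.30 for Ikzf1, -30.1 to -0.033 for Ikzf3 and -13.9 to -8.89 for Ikzf4, the exception being Ikzf2 at -25.6 to 7.97. The cause of these changes was not tested. No paired analysis was possible because the replicate numbers name wells or plates in order and tie no plate of one treatment to a plate of the other. Depth limits what a share in 38 to 62 cells can show.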

Other observations

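Foxp3 and haemoglobin transcripts were found in the same cells. Foxp3 was present in 64.3% of the 56 cells with a count of Hba-a1, Hba-a2, Hbb-bs or Hbb-bt and in 26.7% of the other cells. By plate, this was 1 of 2 against 23 of 60 cells on vehicle plate 1, 12 of 13 against 11 of 45 on vehicle plate 2, 13 of 21 against 1 of 17 on imiquimod plate 1, and 10 of 20 against 4 of 24 on imiquimod plate 2. The odds ratio was 10.5 over plates and 11.3 within plates divided at their median number of detected genes. For the other 4 genes the latter ratio was 1.56 for Ikzf1, 1.80 for Ikzf2, 2.77 for Ikzf3 and 0.978 for Ikzf4, and for Foxp3 with melanocyte markers it was 2.99. The pattern was chosen after its values were seen and was not tested. Hba-a1 had a count in 3 of the 20 wells without a cell.

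Ikzf1 on imiquimod plate 2 differed between kinds of well. It was present in 1 of 44 kept cells and in 4 of 4 wells of 10 cells. The median level in those wells was 183.1 CPM, where vehicle plates had 142.9 and 70.8 CPM and imiquimod plate 1 had 18.7 CPM.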
